A study of Mus musculus with 12 samples.

Results

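The NMDA receptor is a glutamate-gated cation channel. Its subunit genes Grin1, Grin2a, Grin2b, Grin2c, Grin2d and Grin3a were followed in RNA from the mouse basolateral amygdala (BLA). This region takes part in learning about aversive and rewarding events. The subunit genes were taken by gene symbol as 6 of the 20752 gene symbols on an Affymetrix mouse expression array. They had 12 of its 45037 non-control probe sets. Grin3b, the remaining subunit gene, has 1 probe set on the array but was not among the genes followed. A probe set is a group of short probes read as 1 value for a transcript. The mice of 1 group received footshocks (shock), and those of the other met a female mouse (female). Both groups carried PABPC1-FLAG, the poly(A)-binding protein PABPC1 with a tag, driven in the BLA by the fos promoter, which neuronal activity switches on, and RNA was immunoprecipitated through the tag. Neither an unexposed group nor input RNA was analysed here, and the labels give no strain, age, sex or time after exposure. Each group had 3 arrays, each deposited as RMA values (log2 scale) and as MAS5 intensities (linear scale), which makes 12 samples from 6 arrays. The design note speaks of pools of 2 mice a sample and 3 mice a group, so arrays of a group may share mice, and every test below measures only the spread between arrays. Over the 45037 probe sets the arrays correlated at 0.996 within shock, 0.990 to 0.997 within female and 0.978 to 0.994 between the groups (Pearson, RMA values), and female replicate 2 is named where a result rests on it.

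NMDA receptors are assembled from obligatory GluN1 subunits, encoded by Grin1, which bind the co-agonist glycine or D-serine, together with GluN2 subunits, which bind glutamate, or GluN3 subunits, which bind glycine. The channel opens fully only when glutamate arrives at a depolarised membrane, because magnesium ions block the pore at rest, and the calcium that then enters starts long-term changes of synapses. In the amygdala, as in other forebrain regions, NMDA receptors are known for their part in the learning of conditioned fear. GluN2A and GluN2B are the main partners of GluN1 in adult forebrain excitatory neurons, GluN2C is best known from cerebellar granule cells, GluN2D from inhibitory neurons, and GluN3A lowers the calcium flow and the magnesium block of the receptors it joins.

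Of the 6 subunit genes, Grin1 and Grin2a were higher in female, Grin3a was higher in shock, and Grin2b, Grin2c and Grin2d did not pass the test. The main probe set of Grin1 was 1.34-fold and that of Grin2a 1.38-fold higher in female, and that of Grin3a 1.55-fold higher in shock. A gene is called here when limma's test across all 27022 tested probe sets gave its main probe set (its brightest by mean RMA value) a Benjamini-Hochberg adjusted p under 0.05. In shock, 10.6% of the 13265 tested genes were called higher, against 1 of the 6 subunit genes, and in female 9.36%, against 2 of the 6. Of the 12 subunit probe sets 10 were tested. A higher value in shock was called for 1 of these and for 9.31% of all tested probe sets, and a higher value in female for 3 and for 11.5%. The median difference of the 6 main probe sets was -0.11 (log2, shock minus female), against 0.06 over all genes tested. On the MAS5 values of the same arrays none of the 10 was called, against 2.01% of all probe sets. None was called either with each array's difference between upstream and 3' probe sets as a covariate, described below. That fit called 1 probe set of the whole array. The main probe sets of Grin1, Grin2a and Grin3a were then at -0.18, -0.41 and 0.055. In the authors' deposited table of RMA values their FDRs were 0.191, 0.127 and 0.258. The RNA was immunoprecipitated, and no input was analysed. Fewer tagged cells of a type, less RNA per cell and less RNA bound or recovered through the tag cannot be told apart here.

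**Figure D1:**
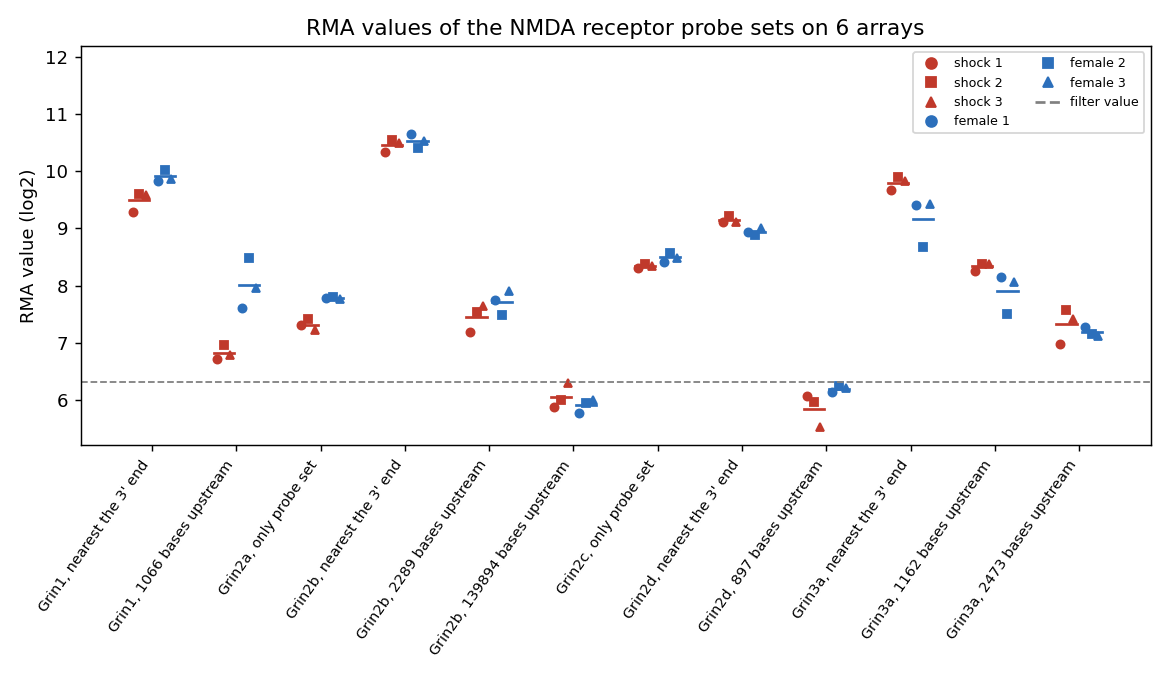
RMA value (log2) of each of the 12 subunit probe sets on the 3 shock arrays (red) and the 3 female arrays (blue), with a line at each group mean. The dashed line is the filter value of 6.31, below which the dimmest probe sets of Grin2b and Grin2d lay and were not tested. The Grin1 and Grin2a probe sets sit lower in shock, and the brightest Grin3a probe set sits higher.

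Grin1, which encodes the subunit that every NMDA receptor contains, had 2 probe sets, and both were lower in shock on all arrays. The files place the brighter one, nearest the 3' end, on chromosome 2, positions 25291180 to 25291789, minus strand, and the other on the same strand at positions 25292246 to 25319163. No genome build is named there, and the files do not say whether a probe set lies in an exon or a UTR. The RMA values of the 3' probe set were 9.28, 9.61 and 9.59 in shock replicates 1, 2 and 3 and 9.83, 10.03 and 9.88 in female replicates 1, 2 and 3. The groups did not overlap, and shock replicate 1 was the lowest array. Shock averaged 9.49 ± 0.18 and female averaged 9.91 ± 0.10 (SD of log2 values, n = 3). The difference was -0.42 ± 0.12 (SE), with an adjusted p of 0.0366 from limma. On MAS5 values, which did not overlap either, it was -0.28 and not called (adjusted p = 0.336).

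The upstream Grin1 probe set, whose 3' end lies 1066 bases upstream, differed by more. Its RMA values were 6.71, 6.96 and 6.78 in shock and 7.60, 8.48 and 7.96 in female, in replicate order. No arrays overlapped, and female replicate 2 was well above the other female arrays. The means were 6.82 ± 0.13 and 8.01 ± 0.44 (log2, SD, n = 3), which is 2.29-fold higher in female. The difference was -1.19 ± 0.19 (SE), with an adjusted p of 0.00673 from limma. Its MAS5 intensities were 124, 73.8 and 55.5 in shock and 138, 424 and 252 in female. They were also lower in every shock array, with a difference of -1.45 on the log2(value + 16) scale, which understates changes of dim probe sets, and an adjusted p of 0.0774. In the authors' deposited table of RMA values, Grin1 was 1.21-fold (FDR 0.191) and 2.32-fold (FDR 0.156) higher in female at the 3' and the upstream probe set.

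The calls of Grin1 depended on single arrays. For the 3' probe set the adjusted p was 0.135, 0.0693 and 0.0798 without shock replicates 1, 2 and 3 and 0.0668 without female replicate 3, with differences from -0.47 to -0.31 over the 6 fits that each left out 1 array. For the upstream one the call was lost without shock replicate 1 alone (adjusted p = 0.0567), a fit that called only 36 probe sets of the whole array in the direction of shock and 285 in that of female. Its difference was -0.96 without female replicate 2.

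The promoter of Grin1 is shown because both of its probe sets were called. Among the subunit genes, promoter sequences were at hand only for Grin1, Grin2c and Grin2d, so those of Grin2a, Grin2b and Grin3a were not read. RefSeq's table for GRCm38.p6 gives it at chr2:25319138-25319437, minus strand, from 250 bases before to 50 after the start site. Capitals mark the single match of the GC box GGGCGG, a motif bound by Sp1-type factors, on either strand.

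Grin1: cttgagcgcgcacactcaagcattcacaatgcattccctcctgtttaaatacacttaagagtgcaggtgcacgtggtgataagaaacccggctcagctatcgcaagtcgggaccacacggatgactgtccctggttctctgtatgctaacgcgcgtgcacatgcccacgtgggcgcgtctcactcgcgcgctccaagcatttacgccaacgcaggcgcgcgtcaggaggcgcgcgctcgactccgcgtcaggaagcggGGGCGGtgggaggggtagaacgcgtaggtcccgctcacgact

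The match began 9 bases after the start site (base 259 of the stretch), and 60.7% of the bases were G or C. A GC box was found in 35.7% of the 32851 promoters of this length in the table. Neither the cyclic AMP response element TGACGTCA, found in 1.79% of all promoters, nor the AP-1 motif TGANTCA, which Fos proteins bind and which 7.81% hold, had a match here on either strand. Grin2c had 3 matches of the GC box, of which 2 overlap, and Grin2d none. A match or its absence is a description of these letters only.

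Grin2a encodes GluN2A, the GluN2 subunit that becomes more abundant in the forebrain after birth and gives fast-closing channels. Its only probe set (chromosome 16, positions 9577709 to 9992961, minus strand, build not named) had RMA values of 7.32, 7.41 and 7.22 in shock and 7.78, 7.80 and 7.76 in female, in replicate order. All shock arrays lay below all female arrays, and the female arrays hardly differed among themselves. The means were 7.31 ± 0.09 and 7.78 ± 0.02 (log2, SD, n = 3). They differed by -0.46 ± 0.10 (SE), with an adjusted p of 0.0150 from limma. On MAS5 values the difference was close to this, at -0.43, but not called (adjusted p = 0.175), although the intensities, 239 to 325 in shock and 369 to 435 in female, did not overlap either. The call was lost without shock replicate 1 (adjusted p = 0.0715) and without shock replicate 3 (0.0647). The authors' deposited table gives Grin2a as 1.38-fold higher in female with an FDR of 0.127, its smallest FDR among the 12 subunit probe sets.

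Grin2b encodes GluN2B, which gives slowly closing channels and carries the long cytoplasmic tail that binds the kinase CaMKII. Its main probe set (chromosome 6, positions 135729808 to 135730278, minus strand) did not differ detectably. The RMA values were 10.35, 10.56 and 10.49 in shock and 10.66, 10.41 and 10.53 in female. The groups overlapped, with a difference of -0.07 (95% interval -0.31 to 0.18, limma adjusted p = 0.659), and on MAS5 values the sign turned (0.07). The interval does not hold the value measured for Grin2a (-0.46), but it overlaps the 95% interval of that gene (-0.68 to -0.25). The direct comparison of both genes is given with the ratios. A further probe set (positions 135732097 to 136044313), whose 3' end lies 2289 bases upstream, had RMA values of 7.18, 7.53 and 7.65 in shock and 7.74, 7.48 and 7.90 in female. It overlapped and was at -0.26 (95% interval -0.59 to 0.08, limma adjusted p = 0.222). With array weights, which gave female replicate 2 a weight of 0.20, it was called at -0.34 (adjusted p = 0.0347). That fit called 4211 of all 27022 probe sets higher in shock and 4541 higher in female. The last Grin2b probe set begins 139894 bases upstream and lay below the filter, with means of 6.05 ± 0.21 and 5.90 ± 0.12 (log2, SD, n = 3). It differed by 0.15 in the fit without a filter (adjusted p = 0.466).

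Grin2c and Grin2d encode the GluN2 subunits with the weakest magnesium block. The single Grin2c probe set (chromosome 11, positions 115249169 to 115267243, minus strand) had RMA values of 8.30, 8.38 and 8.33 in shock and 8.41, 8.58 and 8.49 in female. The groups were separate, but the difference of -0.15 had a 95% interval of -0.37 to 0.06 and a limma adjusted p of 0.253. Among cell type markers that go with this gene, 3 of 12 astrocyte genes (Mlc1, Aldoc and S100b) were higher in female and none in shock (9.36% and 10.6% of all tested genes), with a median difference of -0.08, and the mean RMA value of the list ran from 9.79 to 9.86 in shock and from 9.77 to 10.07 in female. Of 5 tested cerebellar granule cell genes 1, Neurod1, was higher in shock and none in female, with a median of -0.11 and list means of 8.35 to 8.73 and 8.40 to 8.53. The part of either in the Grin2c value was not tested.

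For Grin2d the brighter probe set (chromosome 7, positions 45831882 to 45832341, minus strand) had RMA values of 9.12, 9.21 and 9.12 in shock and 8.94, 8.89 and 9.01 in female. Shock lay above female on all arrays, by 0.20 (95% interval -0.01 to 0.42, limma adjusted p = 0.140), but the MAS5 intensities overlapped and their difference was -0.004. Its other probe set (positions 45832779 to 45867129), 897 bases upstream, lay below the filter and went the other way, with means of 5.84 ± 0.29 for shock and 6.19 ± 0.05 for female (SD, n = 3). The difference there was -0.34 in the fit without a filter (adjusted p = 0.134). Its MAS5 intensities, 1.93 to 48.8 in shock and 9.16 to 19.6 in female, overlapped and were close to the bottom of the scale.

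Grin3a encodes GluN3A, a subunit that is abundant early in life and persists in some adult neurons, among them somatostatin cells. Its brightest probe set (chromosome 4, positions 49661610 to 49662766, minus strand) had RMA values of 9.68, 9.90 and 9.83 in shock and 9.41, 8.67 and 9.44 in female. Shock lay above female throughout, and female replicate 2 was well below the other arrays. The means were 9.80 ± 0.11 and 9.17 ± 0.44 (log2, SD, n = 3). The difference was 0.63 ± 0.19 (SE), with an adjusted p of 0.0416 from limma. MAS5 intensities were 1108, 1311 and 1234 in shock and 889, 731 and 982 in female, again without overlap, with a difference of 0.49 and an adjusted p of 0.129.

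The next Grin3a probe set upstream (positions 49662772 to 49663445) had RMA values of 8.26, 8.37 and 8.38 in shock and 8.15, 7.50 and 8.07 in female. The groups did not overlap, and the difference of 0.43 was not called (95% interval 0.07 to 0.79, limma adjusted p = 0.0768). The third one (positions 49664083 to 49672615) overlapped between the groups, with a difference of 0.13 (95% interval -0.19 to 0.46, adjusted p = 0.516). The call of Grin3a therefore rested on 1 of its 3 probe sets. It was lost without shock replicate 1, 2 or 3 (adjusted p = 0.114, 0.121 and 0.119), and without female replicate 2 the difference was 0.38, still called (0.0223). The mean of the 3 probe sets differed by 0.40 and was not called (0.0792). The authors' deposited table has Grin3a 1.32-fold higher in shock with an FDR of 0.258.

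**Figure D2:**
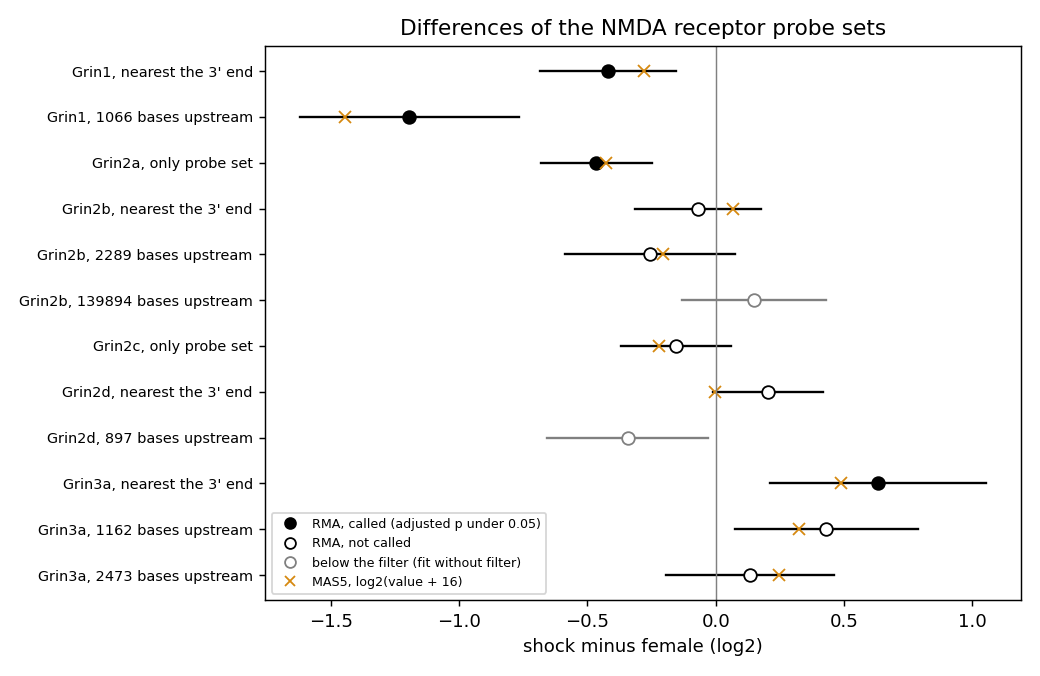
Difference between shock and female (log2) for each subunit probe set, from limma on RMA values, with its 95% interval. Filled points were called, grey ones lay below the filter and come from the fit without it, and crosses are MAS5 values. The called differences run from -1.19 (Grin1) to 0.63 (Grin3a), and the crosses of the main probe sets of Grin2b (0.065) and Grin2d (-0.0041) have the sign opposite to their RMA values.

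Whether the groups overlapped is a weak criterion on these arrays. The groups were separate for 7 of the 10 tested subunit probe sets, and for 47.7% of all tested probe sets.

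Probe sets farther from the 3' end of a subunit gene had lower values in shock relative to the one nearest to it, except for the Grin2b probe set 139894 bases away, which went the other way (0.22, overlapping, exact p = 0.5). In each of the 4 subunit genes with several probe sets, the one nearest the 3' end had a higher shock minus female value than the next one upstream. That probe set was also the brightest of its gene, so position and brightness cannot be told apart in these 4 genes. The upstream difference minus the 3' difference was -0.77 in Grin1, -0.55 in Grin2d, -0.20 in Grin3a and -0.19 in Grin2b. All 5 upstream probe sets within 20000 bases were lower relative to the most 3' one in shock than in female, and in 4 of the 5 the groups did not overlap. The upstream Grin2d probe set among them lay below the filter. The share of all genes with such a separation was not counted, so the 4 of 5 have no background to be read against. For Grin1, the upstream value minus the 3' value was -2.57, -2.64 and -2.82 in shock and -2.23, -1.55 and -1.92 in female. For the farthest Grin3a probe set it was -2.69, -2.33 and -2.43 in shock and -2.13, -1.51 and -2.32 in female. The exact permutation test, 2-sided, gave p = 0.1, the smallest that 3 against 3 arrays allow, for these and the other separate ones, and 0.15 after adjustment over 6 comparisons.

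The same direction held in 78.0% of 2787 genes with tested probe sets 500 to 20000 bases apart, where the median of the upstream minus the 3' difference was -0.29. Per array, the median upstream minus 3' value of these genes ran from -1.01 to -0.88 in shock and from -0.77 to -0.48 in female, with female replicate 2 the highest. With this signal as a covariate in the fit, the difference of Grin3a was 0.055, that of Grin1 -0.18 at the 3' and -0.52 at the upstream probe set, and that of Grin2a -0.41. None was then called, and only 1 probe set was called in the whole fit. A fraction of 0.658 of the variance of this signal lies between the groups, so the group and the signal cannot be fully told apart. Grin2a, whose value moved least among the called probe sets, has no other probe set on the array.

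**Figure D3:**
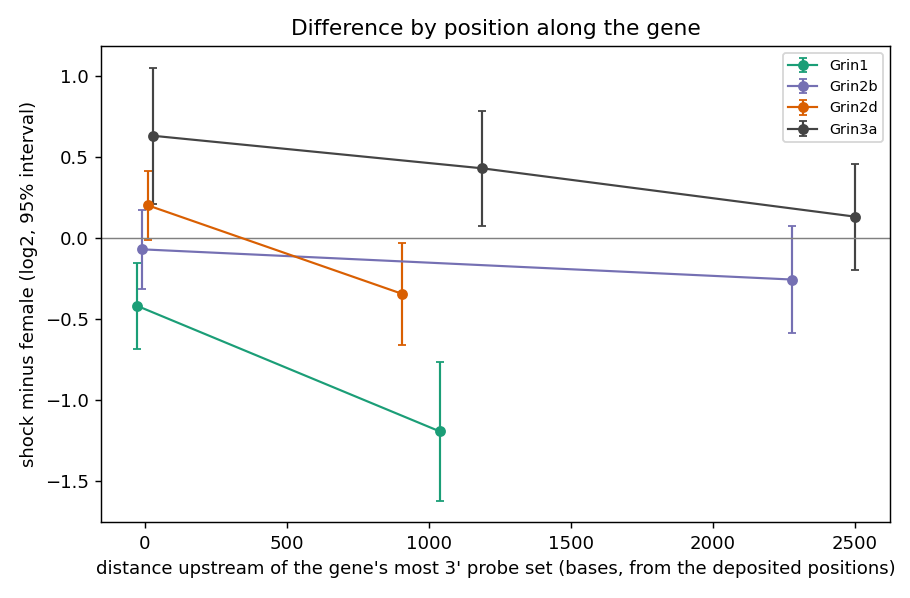
Shock minus female difference (log2, with 95% interval) of the probe sets of Grin1, Grin2b, Grin2d and Grin3a, by the distance of their 3' end from that of the gene's most 3' probe set, with points moved slightly sideways to keep them apart. The Grin2b probe set 139894 bases away is not drawn. Every line falls from the 3' end, from 0.63 to 0.13 in Grin3a. The most 3' probe set was also the brightest of each gene.

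For the ratio of subunit RNAs within an array, only its change between groups is read here, since levels of different probe sets cannot be compared. The make-up of the receptor was not measured, since these are RNA values and the subunits may lie in different cells. Grin2a minus Grin2b was -3.03, -3.15 and -3.27 (log2) in shock and -2.88, -2.61 and -2.77 in female. Every shock array lay below every female array, by -0.40 on average, with an exact permutation p of 0.1, the smallest possible, and 0.12 adjusted over 6 ratios. On MAS5 values the change was -0.49. Grin2a against Grin1 changed by -0.05, with overlapping groups (exact p = 0.9).

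Relative to Grin1, the subunits other than Grin2a stood higher in shock on every array. These ratios share the main Grin1 probe set, itself at -0.42, so they are not independent of each other. Grin2b and Grin2c were themselves at -0.07 and -0.15, neither called. The ratios were not fitted with the along-gene signal as a covariate, with which Grin1 was at -0.18 and Grin3a at 0.055. The change was 0.35 for Grin2b, 0.26 for Grin2c, 0.62 for Grin2d and 1.05 for Grin3a, all without overlap (exact p = 0.1, adjusted 0.12). Grin3a minus Grin1 was 0.39, 0.30 and 0.24 in shock and -0.42, -1.36 and -0.44 in female, and the change was 0.74 without female replicate 2. For Grin2b minus Grin1 the change without that array was 0.23. On MAS5 values the change of Grin2c fell to 0.06 and that of Grin2d to 0.27.

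**Figure D4:**
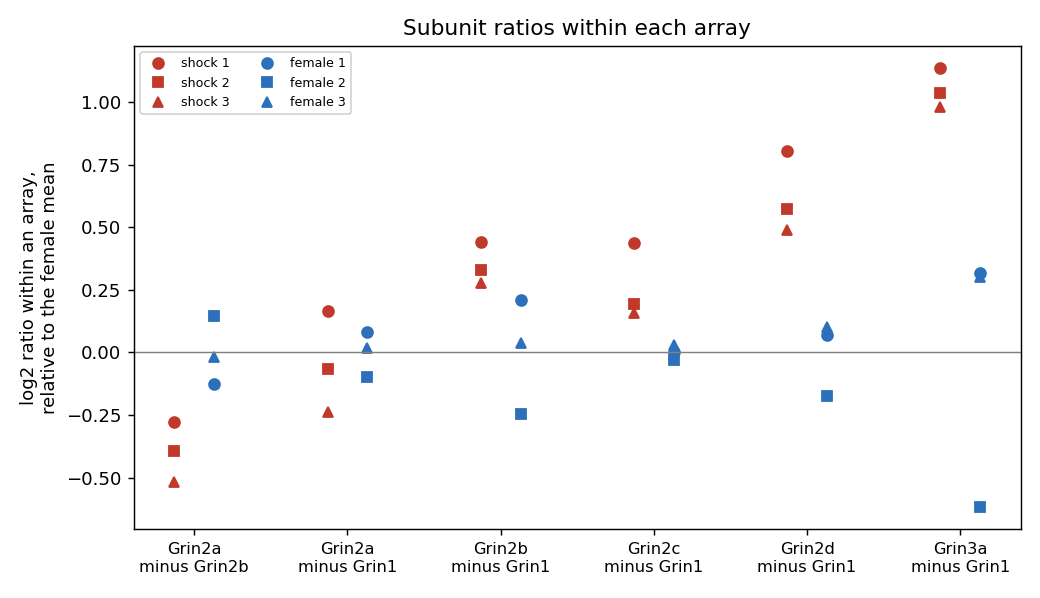
Log2 ratio of pairs of subunit genes within each array, each set to 0 at its mean over the 3 female arrays. Red points are shock arrays and blue points female arrays. Grin2a against Grin2b is lower in shock by 0.40, Grin3a against Grin1 is higher by 1.05, and Grin2a against Grin1 overlaps.

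Markers were read to see which cells the RNA came from, beside the 10.6% of all tested genes called higher in shock and the 9.36% called higher in female. Of 10 general neuron markers 4 (Gap43, Syp, Stmn2 and Eno2) were higher in female and none in shock, with a median difference of -0.003, and the mean RMA value of the list was 11.78 to 11.84 in shock and 11.90 to 11.96 in female. Of 11 excitatory projection neuron genes 2 (Slc17a6 and Rspo2) were higher in shock and 3 (Slc17a7, Camk2a and Nrgn) in female, with a median of 0.09. Their list means were 9.70 to 9.78 in shock, and 9.87, 9.42 and 9.80 in female replicates 1, 2 and 3. Female replicate 2 was the lowest array here, for instance at 7.48 for Neurod6, a transcription factor of these neurons that did not pass the test, against 9.23 and 8.78 in the other female arrays. Of 16 inhibitory neuron genes 3 (Vip, Adarb2 and Gad1) were higher in shock and 1 (Pvalb) in female, with a median of 0.22 and list means of 9.98 to 10.17 in shock and 9.78 to 10.01 in female.

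Of 9 striatal genes 2 (Pde10a and Gpr6) were higher in shock and 1 (Ppp1r1b) in female, with a median of -0.22. Their list means were 8.66 to 8.73 in shock, and 8.56, 9.28 and 8.93 in female replicates 1, 2 and 3. Female replicate 2 was the highest array, for instance at 9.40 for the adenosine receptor gene Adora2a, which did not pass the test, against 8.44 and 8.59 in the other female arrays. The same array was the highest for both Grin1 probe sets and the lowest for the brightest Grin3a probe set. Of 15 oligodendrocyte genes 4 were higher in female and none in shock, 13 of the 15 lay below 0 and the median was -0.32. Their list means were 9.49 to 9.74 in shock and 9.76 to 10.28 in female, with female replicate 2 the highest. Of 10 microglial genes 3 were higher in female and none in shock, with a median of -0.09 and list means of 7.68 to 7.78 and 7.80 to 8.18. For endothelial and mural cells 3 of 9 genes were higher in female and none in shock, with a median of -0.18 and list means of 7.45 to 7.56 and 7.67 to 7.79. The part of any cell type in the subunit differences was not tested.

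Of the 11 other ionotropic glutamate receptor genes (AMPA, kainate and delta subunits), 1 was higher in shock, 2 were lower there and 8 did not pass, with a median of 0.07. Over all tested genes the called share was 10.6% in the direction of shock and 9.36% in that of female, which is the background of each list that follows. The kainate receptor gene Grik5 was at -0.56 (limma adjusted p = 0.0106) and the AMPA receptor gene Gria1 at -0.61 (0.0301). Without female replicate 2, Gria1 was at -0.42, still called. Grik3, another kainate receptor gene, was at 0.61 (0.0142), but another of its probe sets was called the other way, at -0.50 (0.0402).

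Among 22 genes of scaffolds and trafficking, 2 rose and 5 fell in shock relative to female, and 15 did not pass, with a median of 0.02 (background 10.6% and 9.36%). The adaptor gene Gipc1 was at -0.93 (adjusted p = 0.00528), Shank3, a scaffold of the postsynaptic density, at -0.72 (0.00879), and Dlgap3, which links the receptor's PSD-95 complex to Shank proteins, at -0.61 (0.00732). All 3 were lower in shock on every array. Dlg4, which encodes PSD-95 itself, was at -0.40 with overlapping groups and did not pass (0.180). It was chosen for mention after its value was seen, as the best known of these scaffolds.

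Among 25 genes of kinases and phosphatases that act on the receptor, 2 were called in the direction of shock and 7 in that of female, and 16 did not pass, with a median of -0.06 (background 10.6% and 9.36%). Cdk5, a kinase that phosphorylates GluN2A, was at -1.01 (adjusted p = 0.00747, with another probe set at -0.20, not called). Without female replicate 2, Cdk5 was at -0.80, still called. The CaMKII subunit gene Camk2b was at -0.79 (0.00401), and Csk, which inhibits Src family kinases, at -0.49 (0.0127).

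Of 9 tested genes for the supply and clearance of glycine and D-serine, 2 were higher in female, none was higher in shock, and 7 did not pass, with a median of 0.02 (background 9.36% and 10.6%). The glycine transporter gene Slc6a9 was at -0.44 (adjusted p = 0.0235, and -0.19, not called, at another probe set). Shmt2, of mitochondrial serine and glycine metabolism, was at -0.39 (0.0263, and 0.11 and -0.01, not called, at others). The transporter gene Slc7a10 was at -0.25 and did not pass (0.0978).

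Among 16 tested genes downstream of the receptor, 4 were higher in female, none was higher in shock, and 12 did not pass, with a median of 0.11 (background 9.36% and 10.6%). Nsmf, which encodes the synapse-to-nucleus messenger Jacob, was at -1.13 (adjusted p = 0.00401), while its 3 other tested probe sets were at -0.29, -0.09 and -0.03, none called. The CREB coactivator gene Crtc1 was at -0.68 (0.00495, and -1.04, called, and -0.16, not called, at others), and Mapk3, which encodes the kinase ERK1, at -0.65 (0.0151). Of the 15 genes named from these 5 lists by smallest p, 14 were called, which that choice itself favours. Of these, 4 (Gipc1, Camk2b, Nsmf and Crtc1) were called in each of the 6 fits that left out 1 array, and the other 10 in 2 to 5 of the 6. On MAS5 values 5 were called, these 4 and Cdk5, against 2.01% of all tested probe sets, which were not picked by p. How often other genes picked by p keep their call in these fits was not counted. Without female replicate 2, Gipc1 was at -0.81, Shank3 at -0.59, Mapk3 at -0.51 and Grik3 at 0.49, all still called, while Crtc1 was at -0.69. With the along-gene (5' to 3') signal as a covariate, none of the 14 was called, all kept their sign, and 7 were smaller by more than 1.5 times. Gria1 was then at -0.07 (adjusted p = 0.907), Mapk3 at -0.23 (0.582) and Cdk5 at -0.44 (0.332), while Camk2b was at -0.70 (0.127) and Crtc1 at -0.67 (0.135).

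Genes whose RMA values ran most like those of a subunit gene over the 6 arrays were sought among 11596 other genes. With 6 points and so many genes, such likeness is a description only. The nearest to Grin1 were Pvrl2, Git1 and Sez6 (Pearson r of 0.999, 0.999 and 0.998). The nearest to Grin2a were Nkiras2, Hsd17b12 and Ptms (0.996, 0.993 and 0.992), and to Grin2b Fam181b, Thra and Sik1 (0.988, 0.984 and 0.983). For Grin2c they were Bai1, Apoa1bp and Samm50 (0.999, 0.997 and 0.996), for Grin2d Slc23a2, Mad2l1bp and Lmln (0.996, 0.994 and 0.993), and for Grin3a Lgi1, Elavl1 and Trim27 (0.999, 0.998 and 0.997). Their differences need not be of the same size, since Ptms was at -1.29 and Nkiras2, not called, at -0.22.

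**Figure D5:**
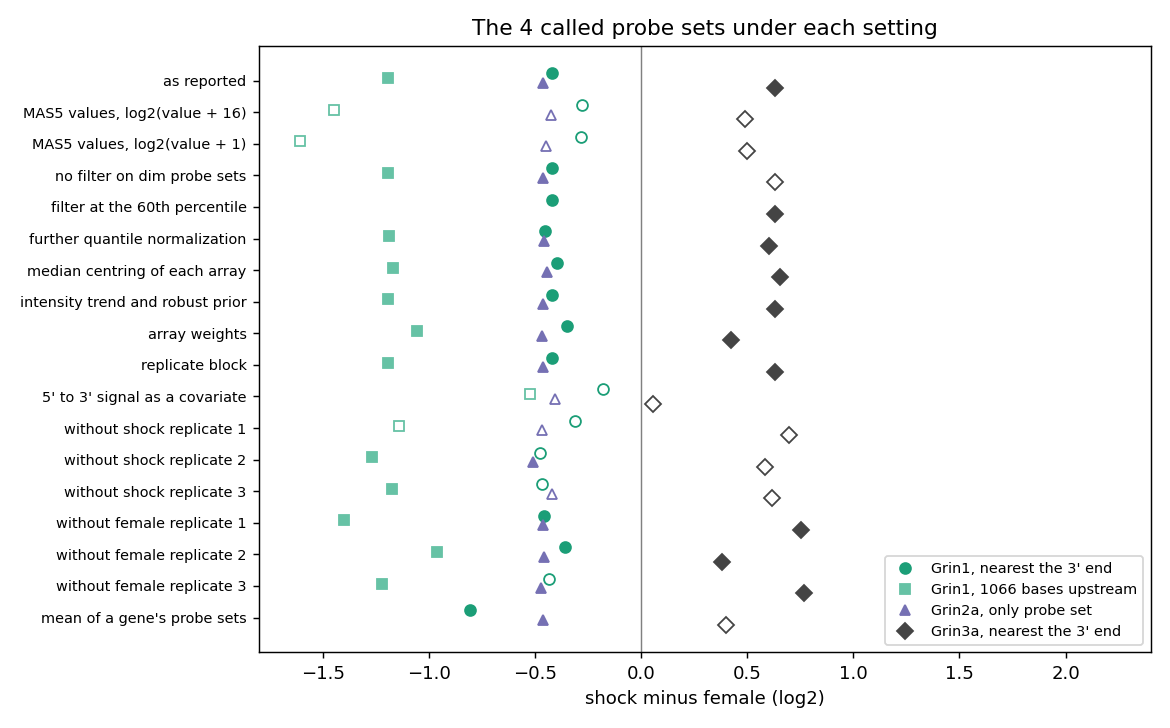
Shock minus female difference (log2) of the 4 called subunit probe sets under each way of processing the data, with filled symbols where the limma adjusted p was under 0.05. The sign of each of the 4 is the same in all settings drawn, many of which could not have turned it. The smallest size for Grin3a (0.055) and Grin1 (-0.18) is with the along-gene signal as a covariate.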

How the data were processed

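For the same 6 arrays the authors deposited log2 RMA values and linear MAS5 intensity values, per the labels' titles and the submitters' processing notes. Software and settings behind them were not given in the sources used here. Per the file headers, the deposited comparison tables hold log2 group averages, p-values with their FDR, and a fold of female to shock, a signed score that is negative where shock was higher. They also gave symbols and positions.

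After 64 control probe sets were set aside, 45037 remained. Shock minus female was fitted with limma 3.58.1 (R 4.3.3; lmFit, eBayes, group as the only term) on the 27022 probe sets with a mean RMA value above the 40th percentile (6.31). P-values were 2-sided and Benjamini-Hochberg adjusted over all of them. The steps were tested on simulated data. Exact permutation tests were run on within-array ratios. The number of arrays limits every precision. Of 200 listed genes 190 were matched to a symbol, 3 per list were named by smallest p, and 3 per subunit gene by correlation. The subunit genes and lists were chosen with earlier results of these data known. Alternatives were MAS5 values with offsets of 16 and 1, other filters and scalings, a trend, array weights, a replicate block, a 5' to 3' covariate, other representatives and leaving out each array.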

Additional observations from a re-analysis of the deposited data

How the results depend on the processing

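Over the alternatives run, each called subunit probe set kept its sign, but many of these could not have turned it. The filters, the trend and the replicate block leave the difference itself as it was. Groups that do not overlap also keep their sign with array weights or without 1 array. On MAS5 values with either offset, and with the along-gene (5' to 3') signal in the fit, 0 subunit genes and 0 probe sets were called in either direction. Without a filter on dim probe sets 0 genes and 0 probe sets were called higher in shock (Grin3a, adjusted p = 0.0572), and so were 0 genes when probe sets of a gene were averaged. Array weights gave 2 subunit probe sets higher in shock and 4 higher in female, in a fit that called 4211 and 4541 of all 27022. With a filter at the 60th percentile 1 gene and 1 probe set, Grin1, were called higher in female, because Grin2a and the upstream Grin1 probe set were then not tested. Without each array in turn, genes called ran from 0 to 1 in shock and 0 to 2 in female, and probe sets from 0 to 2 and 0 to 3. Signs turned on MAS5 values for the main probe sets of Grin2b (0.065 and 0.066) and Grin2d (-0.0041 and -0.0042), and with the covariate for the next Grin3a probe set upstream (-0.052); the cause was not tested. The change of Grin2a against Grin1 ran from -0.15 to 0.049 without each array. On MAS5 values the changes of Grin2c and Grin2d against Grin1 were 0.057 and 0.27. Same-numbered arrays of the groups deviated together with correlations of 0.01, 0.21 and 0.15, and differently numbered ones with correlations from -0.21 to 0.12. The labels state no pairing of the arrays, and whether those of the same number were handled together was not tested. With the replicate number as a block, 1 subunit gene was called in shock and 2 in female, as without it, and over all probe sets 3473 and 3647 were called, against 2516 and 3098. The same counts were 33 and 510 on MAS5 values (offset 16), 4211 and 4541 with array weights, 0 and 1 with the covariate, and ran from 36 and 285 without shock replicate 1 to 3449 and 3307 without female replicate 1. A difference whose 95% interval holds 0 was not detectable with 3 arrays a group.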
